A study of Homo sapiens with 6 samples.

Results

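The enzymes that turn squalene into cholesterol were examined in PATU8988, an established human pancreatic cancer cell line, after knockdown of CLIC1, a chloride intracellular channel protein. The 9 members were chosen by name, as the rows of the deposited gene table called SQLE, LSS, CYP51A1, MSMO1, NSDHL, HSD17B7, EBP, SC5D and DHCR7, out of 60831 rows in all. Each name matched exactly 1 row, and all 9 passed the filter on low values. RNA sequencing compared cells labelled shCLIC1, which carried a lentiviral short hairpin against CLIC1, with cells labelled shNC, which carried a control hairpin, with 3 libraries in each group. Both groups had been infected with a vector that also carries EGFP and a puromycin resistance gene, and stable cells were kept under 5 μg/mL puromycin for 2 weeks. Hairpin sequences, the number of hairpins against CLIC1 and the number of separate infections were not analysed here. The p-values therefore reflect only how far these libraries differ from each other, and that spread may be technical.

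Cholesterol is built from acetyl-CoA, first to squalene by the mevalonate pathway and then, in the endoplasmic reticulum, through a chain of oxidations, demethylations and double-bond changes. SQLE opens this second stretch by adding an oxygen atom to squalene, LSS closes the product into the ringed sterol lanosterol, and the remaining enzymes strip methyl groups from lanosterol and move or reduce its double bonds. The genes of the pathway are textbook targets of the transcription factor SREBP2, encoded by SREBF2, which is released to the nucleus when membrane sterol is low and held back by INSIG proteins when it is high. Cancer cells can make cholesterol in this way or take it up from lipoproteins.

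All values are TPM, a level corrected for gene length and scaled to the same total in each library, so levels can be compared between genes. The scaling removes sequencing depth, which is unknown here, and no counting interval can be given. CLIC1 itself was at 219, 210 and 204 TPM in shCLIC1 libraries, against 313, 311 and 297 TPM in shNC libraries, a reduction to 68.8% (log2 fold change −0.54, SE 0.0407, limma adjusted p = 0.00345). The libraries had 13927 to 14257 genes at 1 TPM or more in shCLIC1 and 14014 to 14097 in shNC, with mitochondrially encoded genes taking 17.1% to 18.0% and 17.2% to 17.6% of the total. Of 5 epithelial carcinoma markers, 4 were called higher in shCLIC1, namely KRT8, KRT18, KRT19 and EPCAM, with log2 fold changes of 0.23, 0.23, 0.42 and 0.33 (limma adjusted p = 0.0121, 0.0151, 0.0220 and 0.0210), and CDH1 did not pass the test (−0.16, limma adjusted p = 0.354). Of all tested genes 0.962% were called higher. The 5 epithelial markers summed to 11205 to 11681 TPM in shCLIC1 and 9433 to 9700 TPM in shNC. The part of these markers in the results on sterol enzymes was not tested. Leukocyte markers summed to 0.44 to 1.25 TPM in shCLIC1 and 0.16 to 0.58 TPM in shNC, with PTPRC and CD3E at 0 throughout. Endothelial and islet markers summed to at most 0.31 TPM in any library. Fibroblast markers summed to 1.57 to 3.37 TPM in shCLIC1 and 2.72 to 4.44 TPM in shNC (COL1A1 log2 fold change −0.23, limma adjusted p = 0.639), with COL1A2, DCN and LUM at 0. Acinar markers summed to 4.04 to 4.99 TPM in shCLIC1 and 2.84 to 3.57 TPM in shNC, all of it PRSS1 (log2 fold change 0.42, SE 0.125, limma adjusted p = 0.165). In bulk RNA, fewer cells of a type and less RNA per cell cannot be told apart.

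Although only 3 of the 9 differences passed the test described below, the post-squalene enzymes all had modestly lower means in shCLIC1 cells. Their TPM values summed to 351, 338 and 317 in shCLIC1 libraries, against 429, 432 and 421 in shNC libraries, and the means were 335 ± 17.1 and 428 ± 5.83 TPM (SD, n = 3 each), which puts shCLIC1 at 78.4% of shNC. No shCLIC1 sum reached the lowest shNC sum. All 9 log2 fold changes were negative, between −0.61 and −0.11 with a median of −0.32, where the median over all 14135 tested genes was −0.0047 and 51.3% of them were negative. A gene was called when limma, fitted to log2(TPM + 1) of all tested genes, gave an adjusted p under 0.05. SQLE, MSMO1 and DHCR7, 3 of the 9 enzymes, were called lower, where 0.778% of all tested genes were called lower. In 8 of the 9 every shCLIC1 value lay under every shNC value, a pattern seen in 11.2% of tested genes, and LSS was the exception.

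**Figure D1:**
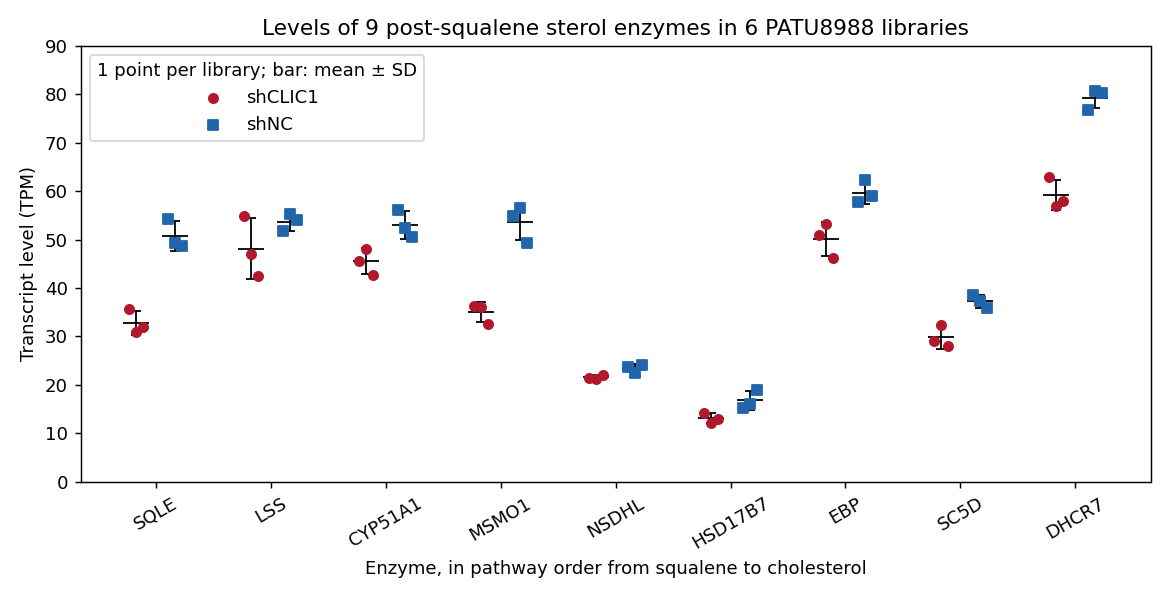
TPM of each enzyme in each library, with shCLIC1 (circles) left of shNC (squares) and the mean ± SD of 3 libraries as bars. The groups are apart in all enzymes except LSS, and the gap is widest, relative to the level, in SQLE and MSMO1, where shCLIC1 means are at 64.7% and 65.3% of shNC means.

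SQLE (ENSG00000104549; chromosome 8, 124998497 to 125022283, plus strand, GRCh38) encodes squalene epoxidase, an oxygen-dependent flavin enzyme and a control point of the pathway. Its level was 35.6, 31.0 and 31.9 TPM in shCLIC1 libraries, against 54.2, 49.2 and 48.7 TPM in shNC libraries. The highest shCLIC1 library was well under the lowest shNC library, and in each group replicate 1 was the highest. The mean was 32.8 ± 2.45 TPM in shCLIC1 and 50.7 ± 3.05 TPM in shNC (SD, n = 3 each), with a log2 fold change of −0.61 (SE 0.0730, 95% interval −0.78 to −0.44, limma adjusted p = 0.0145). That fold change was the lowest of the 9 and fell within the lowest 1.55% of all tested genes. Permuting the library labels gave SQLE an exact p of 0.1, the floor of a design with 3 libraries a group, and the same value was reached by each of the 8 enzymes whose groups did not overlap.

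LSS (ENSG00000160285; chromosome 21, 46188141 to 46228824, minus strand), lanosterol synthase, folds the epoxide made by SQLE into lanosterol. Its level was 54.9, 47.0 and 42.5 TPM in shCLIC1 libraries, against 51.7, 55.4 and 54.1 TPM in shNC libraries. Replicate 1 of shCLIC1 lay inside the shNC range while replicates 2 and 3 lay under it, so that the shCLIC1 spread was the widest of any enzyme (48.1 ± 6.24 TPM, against 53.7 ± 1.85 TPM in shNC; SD, n = 3 each). LSS did not pass the test, with a log2 fold change of −0.16 and a 95% interval of −0.38 to 0.05 (limma adjusted p = 0.449; exact permutation p = 0.3). The fold change was −0.26 without shCLIC1 replicate 1 and −0.08 without shCLIC1 replicate 3, still without a call (limma adjusted p = 0.163 and 0.648).

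CYP51A1 (ENSG00000001630; chromosome 7, 92112151 to 92134803, minus strand) is the cytochrome P450 that removes the first methyl group from lanosterol. It stood at 45.7, 48.1 and 42.7 TPM in shCLIC1 libraries, against 56.2, 52.4 and 50.6 TPM in shNC libraries. The groups were apart by a narrow margin, and the log2 fold change of −0.22 did not pass (SE 0.0651, 95% interval −0.37 to −0.06, limma adjusted p = 0.167). Among pseudogenes that carry its name, CYP51A1P1 and CYP51A1P3 were listed at 0 in all libraries, CYP51A1P2 reached at most 0.05 TPM in shCLIC1 and was listed at 0 in shNC, and 29.9% of the 50-base windows of the CYP51A1P2 transcript also occur in CYP51A1 transcripts (21.9% for CYP51A1P1). The antisense gene CYP51A1-AS1 was at most 0.04 TPM in shCLIC1 and 0.06 TPM in shNC. Reads of such copies may have been counted under CYP51A1 or the reverse, and the sources used here do not say whether counting used strand.

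MSMO1, NSDHL and HSD17B7 act in sequence to take the remaining surplus methyl groups off the sterol ring. MSMO1 (ENSG00000052802; chromosome 4, 165327623 to 165343160, plus strand) is the oxygenase that oxidizes the methyl carbon. It was at 36.3, 36.2 and 32.6 TPM in shCLIC1 libraries, against 54.9, 56.6 and 49.4 TPM in shNC libraries. Replicate 3 was the lowest of each group, and even so its shNC value stood far above all shCLIC1 values. The mean fell to 35.0 ± 2.09 TPM in shCLIC1, against 53.6 ± 3.78 TPM in shNC (SD, n = 3 each; log2 fold change −0.60, SE 0.0725, 95% interval −0.77 to −0.43, limma adjusted p = 0.0151).

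NSDHL (ENSG00000147383; chromosome X, 152830967 to 152869729, plus strand), the dehydrogenase that removes the oxidized carbon, had the smallest difference of the 9. It was at 21.4, 21.2 and 22.0 TPM in shCLIC1 libraries, against 23.6, 22.4 and 24.2 TPM in shNC libraries. The groups did not overlap, but they came within a fraction of 1 TPM of each other. The log2 fold change was −0.11 with a 95% interval of −0.25 to 0.03 (limma adjusted p = 0.421), so a fall as large as those of SQLE and MSMO1 lay outside the interval of NSDHL.

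HSD17B7 (ENSG00000132196; chromosome 1, 162790702 to 162812817, plus strand), the keto-sterol reductase that completes each demethylation, was the least abundant enzyme. It was at 14.2, 12.1 and 13.0 TPM in shCLIC1 libraries, against 15.3, 16.1 and 19.0 TPM in shNC libraries. The log2 fold change of −0.33 did not pass (SE 0.101, 95% interval −0.57 to −0.09, limma adjusted p = 0.173), and shNC replicate 3 lay above the other shNC libraries. The pseudogene HSD17B7P1 was listed at 0 in all libraries. The pseudogene HSD17B7P2, in which 45.9% of the 50-base windows also occur in HSD17B7 transcripts, was at 2.24, 1.90 and 2.74 TPM in shCLIC1 libraries, against 4.24, 4.15 and 2.44 TPM in shNC libraries. Its groups overlapped (log2 fold change −0.47, limma adjusted p = 0.322). The split of reads between HSD17B7 and this copy is uncertain, and its part in the HSD17B7 values was not tested.

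EBP, SC5D and DHCR7 finish the sterol by shifting and reducing ring double bonds. EBP (ENSG00000147155; chromosome X, 48521158 to 48528716, plus strand), the isomerase also known as emopamil binding protein, was at 51.0, 53.2 and 46.3 TPM in shCLIC1 libraries, against 57.8, 62.3 and 59.1 TPM in shNC libraries. Its log2 fold change of −0.25 did not pass (SE 0.0649, 95% interval −0.40 to −0.10, limma adjusted p = 0.124). SC5D (ENSG00000109929; chromosome 11, 121292453 to 121308694, plus strand), the desaturase that introduces a ring double bond, was at 29.04, 32.4 and 28.0 TPM in shCLIC1 libraries, against 38.6, 37.4 and 35.9 TPM in shNC libraries. SC5D missed the threshold by the least of the 6 uncalled enzymes, with a log2 fold change of −0.32 (SE 0.0698, 95% interval −0.48 to −0.15, limma adjusted p = 0.0826). In both genes the groups were apart, and replicate 3 was the lowest shCLIC1 library.

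DHCR7 (ENSG00000172893; chromosome 11, 71428193 to 71452868, minus strand) reduces a ring double bond in the step that yields cholesterol. Its level was 62.8, 56.9 and 58.0 TPM in shCLIC1 libraries, against 76.8, 80.8 and 80.2 TPM in shNC libraries. DHCR7 was the most abundant of the 9 in both groups, and the gap between the groups was wider than the range within either. The mean fell to 59.3 ± 3.14 TPM in shCLIC1, against 79.3 ± 2.16 TPM in shNC (SD, n = 3 each; log2 fold change −0.41, SE 0.0538, 95% interval −0.54 to −0.29, limma adjusted p = 0.0182).

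**Figure D2:**
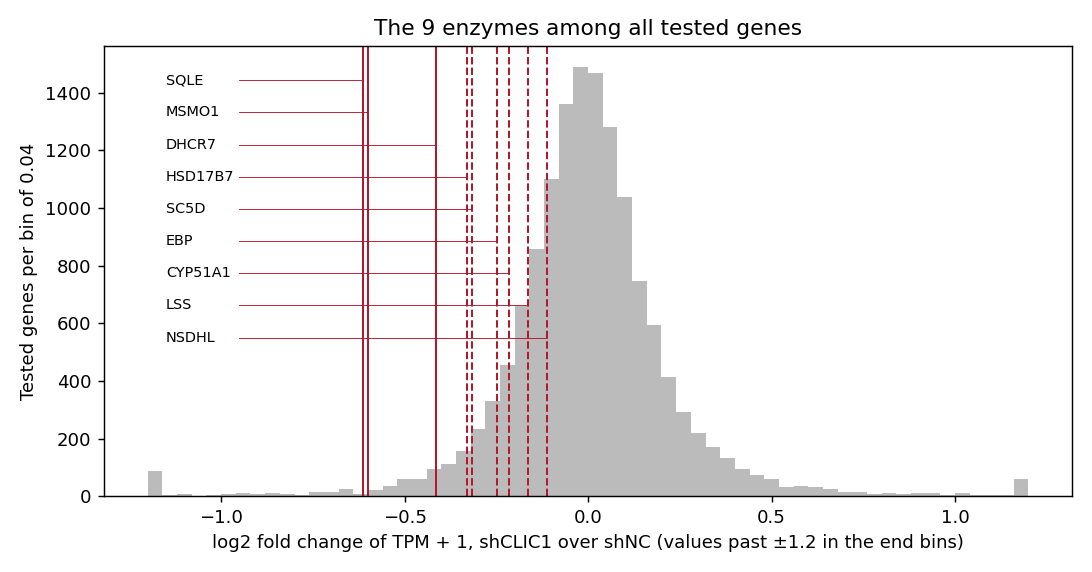
Histogram of log2 fold changes of TPM + 1, shCLIC1 over shNC, for 14135 tested genes, with the 9 enzymes as red lines (solid where called, dashed where not). All 9 lie left of 0, from SQLE at −0.61 to NSDHL at −0.11, and NSDHL, LSS and CYP51A1 lie within the bulk of all genes.

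The order of levels was alike in both groups at its ends and not in its middle. In shNC, LSS, MSMO1, CYP51A1 and SQLE formed a group of overlapping values between 48.7 and 56.6 TPM, below EBP and DHCR7 and above SC5D, NSDHL and HSD17B7. In shCLIC1, LSS and CYP51A1 stood beside EBP, with neighbouring enzymes overlapping between 42.5 and 54.9 TPM, under DHCR7. MSMO1 and SQLE stood beside SC5D in shCLIC1, where neighbouring enzymes overlapped between 28.0 and 36.3 TPM. In both groups the highest level was that of DHCR7 and the lowest were those of NSDHL and HSD17B7, each clear of its neighbours.

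Whether the enzymes differed in their response was examined through the 8 ratios between consecutive enzymes in pathway order. Each ratio was taken within each library as a difference of log2(TPM + 1). LSS over SQLE was 0.61, 0.59 and 0.40 in shCLIC1 libraries, against −0.07, 0.17 and 0.15 in shNC libraries, a difference of 0.45 between group means. MSMO1 over CYP51A1 was −0.32, −0.40 and −0.38 in shCLIC1 libraries, against −0.03, 0.11 and −0.03 in shNC libraries, a difference of −0.38. NSDHL over MSMO1 was −0.73, −0.74 and −0.55 in shCLIC1 libraries, against −1.18, −1.30 and −1.001 in shNC libraries, a difference of 0.49. These were the only 3 ratios of the 8 whose groups did not overlap, each at an exact permutation p of 0.1, the smallest possible, and a Benjamini-Hochberg adjusted p of 0.267 over the 8 ratios. MSMO1 enters both MSMO1 over CYP51A1 and NSDHL over MSMO1, so those ratios are not separate. The other 5 differences lay between −0.22 and 0.08 (exact permutation p from 0.2 to 0.8). With 3 libraries a group the exact permutation test cannot reach a p under 0.05, and no other test of the ratios was run.

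Libraries within a group also differed. In shCLIC1 the median difference of the 9 enzymes from their shNC means was −0.22, −0.20 and −0.36 on the log2 scale in replicates 1, 2 and 3. Replicate 3 held the lowest shCLIC1 value in 5 of the 9 enzymes and replicate 1 in 0, while replicate 1 held the highest in 5. In shNC the medians were 0.01, 0.00 and −0.01.

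The rest of cholesterol synthesis was read from lists of genes named for their place in the pathway. Of 10 listed enzymes of the mevalonate pathway and its branches, 5 fell, 0 rose and 5 did not pass, with a median log2 fold change of −0.40. Of all tested genes 0.778% were called lower and 0.962% were called higher. HMGCS1, which makes HMG-CoA, was at 37.2, 36.1 and 28.1 TPM in shCLIC1 libraries, against 74.2, 69.5 and 65.4 TPM in shNC libraries. Its log2 fold change of −1.03 (SE 0.109, limma adjusted p = 0.0114) exceeded that of every post-squalene enzyme. FDFT1, ACAT2, FDPS and the isomerase IDI1 were called lower with log2 fold changes of −0.48, −0.31, −0.24 and −0.51.

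Other proteins also act after squalene. The reductases LBR and TM7SF2 can perform the same ring reduction after CYP51A1, and in these libraries their fold changes differed in sign, a difference that was not itself tested. LBR was at 70.8, 74.5 and 64.9 TPM in shCLIC1 and 89.9, 83.2 and 82.7 TPM in shNC (log2 fold change −0.28, limma adjusted p = 0.0877). TM7SF2 was at 71.9, 89.5 and 85.5 TPM in shCLIC1 and 72.4, 74.8 and 68.6 TPM in shNC (log2 fold change 0.19, limma adjusted p = 0.350). In the protein family annotation of the deposited table, LBR and TM7SF2 share a sterol reductase domain with DHCR7. EBPL, which carries the domain of EBP, was at 68.4, 104 and 68.8 TPM in shCLIC1 and 65.9, 62.8 and 69.0 TPM in shNC, with shCLIC1 replicate 2 far above the other 5 libraries (log2 fold change 0.26, limma adjusted p = 0.486). That annotation also places MSMO1 and SC5D, at −0.60 and −0.32, in the fatty acid hydroxylase family together with FA2H, which had a log2 fold change of 0.33 without passing (limma adjusted p = 0.442).

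Of 5 proteins that pass electrons to these enzymes, 0 fell and 0 rose, and all 5 log2 fold changes were positive, with a median of 0.07. POR, the reductase that serves SQLE and CYP51A1, was at 105, 111 and 109 TPM in shCLIC1 libraries, against 95.93, 94.14 and 94.99 TPM in shNC libraries. The groups were apart, with POR higher in shCLIC1, but the log2 fold change of 0.19 did not pass (SE 0.0410, 95% interval 0.09 to 0.28, limma adjusted p = 0.0823). Of 21 tested sterol regulators and transporters, 2 were called lower, where 0.778% of all tested genes were called lower. Of these 21, 0 rose and 19 did not pass, with a median log2 fold change of −0.04. INSIG1, one of those called, which retains SREBP in the endoplasmic reticulum and is itself an SREBP target, was at 36.7, 32.6 and 30.2 TPM in shCLIC1 and 56.6, 61.8 and 59.4 TPM in shNC (log2 fold change −0.82, limma adjusted p = 0.00911). SREBF2 was at 62.3 TPM on average in shCLIC1 and 77.1 TPM in shNC and did not pass (log2 fold change −0.31, SE 0.0697, limma adjusted p = 0.0864). Over all pathway lists together 8 genes were called, with 8 without shCLIC1 replicate 3, 5 without shCLIC1 replicate 1, 3 without shCLIC1 replicate 2 or shNC replicate 3, and 2 without shNC replicate 1 or 2. The steroid biosynthesis pathway of the annotation in the deposited table, which holds all 9 enzymes, had 19 tested genes, of which 5 fell and 0 rose. Of those 5, 3 are SQLE, MSMO1 and DHCR7, already counted above. Of the 10 tested genes outside the 9 enzymes 2 fell, where 0.778% of all tested genes did. Those 2 were not compared with the lists and may already be counted there.

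**Figure D3:**
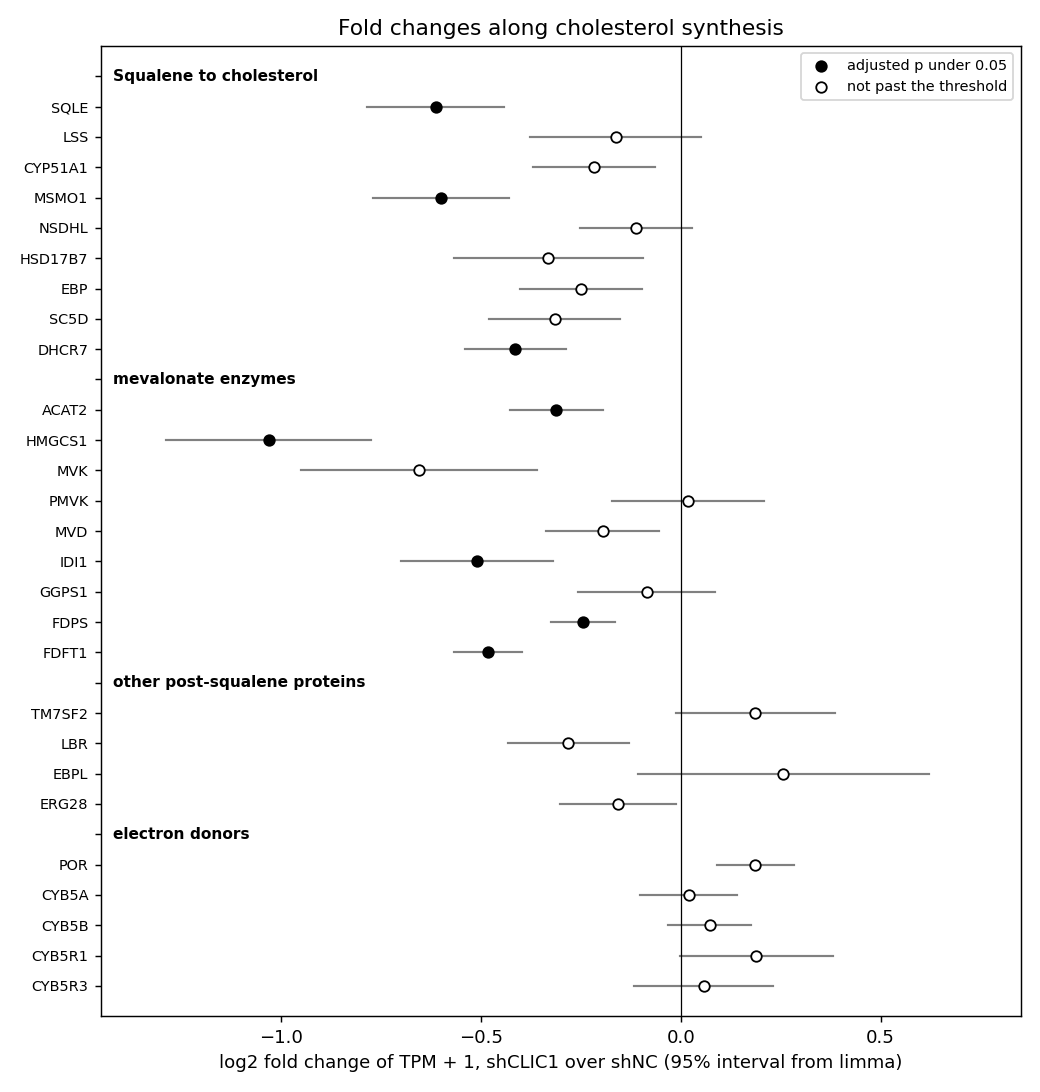
Log2 fold changes of TPM + 1, shCLIC1 over shNC, with 95% intervals from limma; filled points are past an adjusted p of 0.05. The 9 post-squalene enzymes and 8 of the 9 mevalonate enzymes drawn (1 of the 10 in the list is not reported by name) lie left of 0, whereas the 5 electron donors lie right of it.

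The mean profile of the 9 enzymes was compared with every other tested gene by the root-mean-square difference of centred log2(TPM + 1) values over the 6 libraries. The 4 most similar non-members were SQSTM1, NFIL3, EPS8L3 and SLC25A3, with differences of 0.0164, 0.0267, 0.0313 and 0.0313. SQSTM1, the autophagy receptor p62, was at 303, 297 and 283 TPM in shCLIC1 libraries, against 364, 373 and 363 TPM in shNC libraries (log2 fold change −0.32, limma adjusted p = 0.0136). SLC25A3, the mitochondrial phosphate carrier, had a log2 fold change of −0.36 (limma adjusted p = 0.0107), while NFIL3 and EPS8L3 did not pass (−0.32 and −0.36, limma adjusted p = 0.140 and 0.0519). The members themselves ranged from 0.0554 for DHCR7, at rank 67 of all tested genes, to 0.153 for SQLE, at rank 3094. All 4 lay closer to the mean profile than any single member did. They were picked as the closest of all tested genes, whereas the members were fixed by name. The same libraries served that choice and the limma tests, so the calls of SQSTM1 and SLC25A3 are no separate evidence.

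The 3′ UTRs and the promoters of the members were searched for short motifs. The first search was for the 7-base word GTGCTGA in the 3′ UTR, chosen because earlier results of these data had found it often among lower genes. Its share among lower genes is therefore no separate result, and 3′ UTR length was not taken into account. In the longest annotated 3′ UTR of each gene (GENCODE release 29), the word occurred in 48 of 97 searched genes called lower, 49.5%. It occurred in 3.88% of those called higher and in 13.3% of the 11640 tested genes that could be searched. Among the post-squalene enzymes it occurred in 0 of 9, whose searched 3′ UTRs ran from 174 bases in HSD17B7 to 2658 bases in LSS. SQLE, MSMO1 and DHCR7, the called members, do not carry that word. Nor do FDFT1, ACAT2, FDPS, IDI1 and INSIG1, which were also called lower, while HMGCS1 carries it. Of the 21 searched sterol regulators and transporters, 2 carry the word, and 1 of these was called lower. The shorter word TGCTGA, found in 42.5% of searched genes and in 71.1% of those called lower, occurred at 1 place in SQLE and at 2 places in SC5D, and in no other member. What part either word has in the levels was not tested.

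The places in the SC5D 3′ UTR, on chromosome 11, are shown because SC5D has most of these words among the members; capitals mark the word, and in neither place does the G of the longer word precede it.
SC5D, word at base 140 of the 3′ UTR: catcgtgggcacTGCTGAggaatgatccta
SC5D, word at base 930 of the 3′ UTR: acctaggcccatTGCTGAcgattagttcta

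Promoters were taken from RefSeq as windows of 300 bases, mostly before the annotated start (GRCh38.p14). All members but SQLE, 8 of the 9, matched there, with 10 windows in all. Motifs were searched on both strands. A member counts if any of its windows holds the motif, whereas the shares for all genes are of single windows. NF-Y binds CCAAT and commonly acts beside SREBP. CCAAT occurred in 7 of the 8 matched members and in 34.6% of the 35116 windows of all genes. NSDHL held 5 copies, MSMO1 held 4 and EBP held 3, where 3.26% of all windows held 3 or more. The SREBP consensus TCACNCCAC occurred in 0 of the 8 members and in 1.13% of all windows, and its inner part CACNCCA, which lies within the longer motif, occurred in MSMO1, EBP and SC5D and in 17.6% of all windows. The GC box GGGCGG occurred in 7 of the 8 members, 7 times in LSS, and in 45% of all windows, and CACGTG occurred in LSS and SC5D and in 7.26% of all windows. The log2 fold change was −0.11 for NSDHL with 5 copies of CCAAT, −0.60 for MSMO1 with 4, −0.25 for EBP with 3, and −0.33 and −0.41 for HSD17B7 and DHCR7 with 2 each. It was −0.16 and −0.32 for LSS and SC5D with 1 each and −0.22 for CYP51A1 with 0, and no relation between copies and fold change was tested. The copies of DHCR7 lie in 1 of its 2 windows, and its other window held 0 matches to any of these motifs. A match is a description of the letters in the window and not evidence of binding.

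Promoter windows are shown from the called genes MSMO1 and DHCR7, and from NSDHL and EBP, which were not called. NSDHL and EBP hold more CCAAT copies than the 2 in the DHCR7 window shown, and the DHCR7 window without a match is left out. Each runs 5′ to 3′ on the strand of its gene, and capitals mark CCAAT or its reverse ATTGG and CACNCCA on either strand. In NSDHL a CCAAT and an ATTGG overlap in the run CCAATTGG.
MSMO1, chr4:165327419-165327718, plus strand: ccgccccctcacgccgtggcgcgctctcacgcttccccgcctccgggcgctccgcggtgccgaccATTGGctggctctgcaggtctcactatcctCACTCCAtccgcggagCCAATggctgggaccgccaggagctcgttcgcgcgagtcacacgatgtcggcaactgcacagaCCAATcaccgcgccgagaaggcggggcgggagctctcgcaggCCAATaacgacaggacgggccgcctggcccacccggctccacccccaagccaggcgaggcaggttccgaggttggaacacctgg
DHCR7, chr11:71448344-71448643, minus strand: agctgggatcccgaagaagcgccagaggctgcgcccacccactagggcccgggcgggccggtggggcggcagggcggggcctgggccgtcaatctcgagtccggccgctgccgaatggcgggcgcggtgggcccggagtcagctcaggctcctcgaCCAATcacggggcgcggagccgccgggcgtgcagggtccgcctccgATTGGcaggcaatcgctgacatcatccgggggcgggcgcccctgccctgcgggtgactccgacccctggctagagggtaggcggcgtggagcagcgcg
NSDHL, chrX:152830813-152831112, plus strand: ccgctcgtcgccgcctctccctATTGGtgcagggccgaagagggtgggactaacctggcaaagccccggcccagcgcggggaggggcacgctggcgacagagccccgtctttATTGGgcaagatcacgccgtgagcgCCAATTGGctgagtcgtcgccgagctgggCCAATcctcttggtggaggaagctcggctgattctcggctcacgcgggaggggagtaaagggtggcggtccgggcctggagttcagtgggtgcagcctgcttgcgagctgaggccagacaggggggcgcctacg
EBP, chrX:48521558-48521857, plus strand: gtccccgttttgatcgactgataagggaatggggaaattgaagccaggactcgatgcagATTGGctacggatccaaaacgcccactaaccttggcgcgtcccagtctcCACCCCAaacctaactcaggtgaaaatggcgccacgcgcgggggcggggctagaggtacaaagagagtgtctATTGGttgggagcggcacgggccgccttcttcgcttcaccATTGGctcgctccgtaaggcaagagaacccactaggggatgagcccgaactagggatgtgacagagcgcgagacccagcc

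The calls rested on small margins. The fold changes of all 9 enzymes stayed negative under all 16 other settings, including each library left out in turn. Where the groups of an enzyme did not overlap, leaving out a library or changing the pseudocount could not reverse the sign. Filters, limma settings and the replicate term leave the fold change as it is. For those enzymes only the rescalings could have changed the direction. SQLE was called in 10 of those settings, MSMO1 in 11 and DHCR7 in 9, and the other 6 enzymes in 0. Without shCLIC1 replicate 2, shNC replicate 1 or shNC replicate 2, none of the 9 was called, and without shNC replicate 3 only MSMO1 was. In each of the first 3 of these fits 7 of the 9 had an unadjusted limma p under 0.05. In the same order, so did 1920 of 14096, 1700 of 14148 and 1748 of 14135 tested genes. In those fits the adjusted p of SQLE was 0.0596, 0.0725 and 0.0734, and 0.0540 without shNC replicate 3. For DHCR7 the same 4 values were 0.0683, 0.0769, 0.0959 and 0.0811, and for MSMO1 the first 3 were 0.0552, 0.0802 and 0.0797. None of the 9 was called either without a filter on low values or by limma without the trend, where the adjusted p of SQLE, MSMO1 and DHCR7 lay between 0.0535 and 0.0824. In both of these fits 7 of the 9 enzymes had an unadjusted p under 0.05. So did 2772 of 29306 tested genes without the filter and 2040 of 14135 without the trend.

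**Figure D4:**
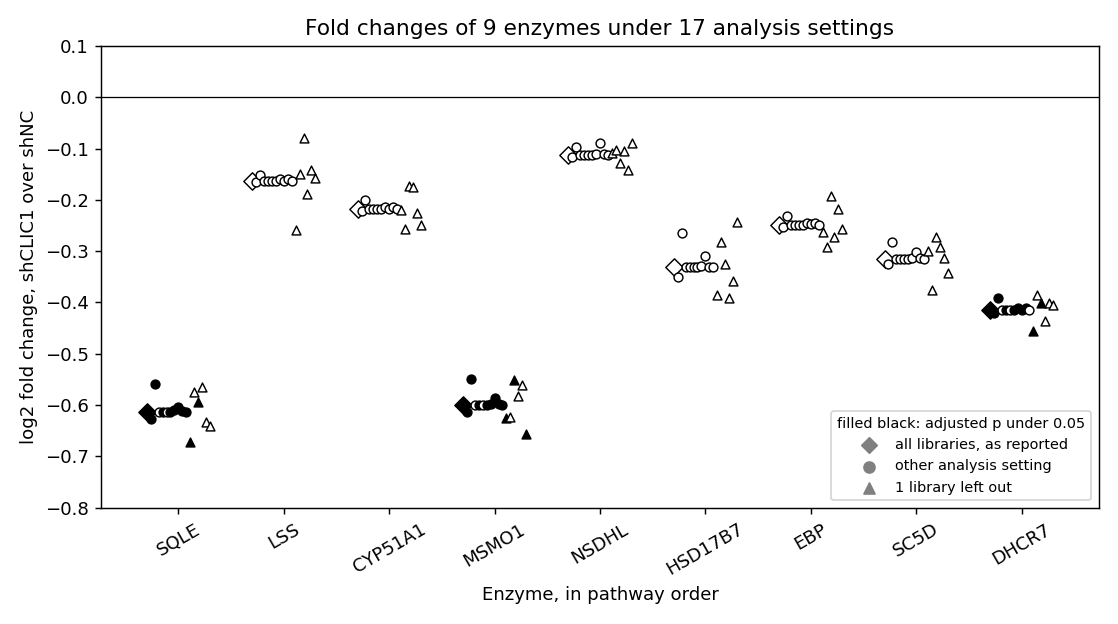
Log2 fold changes of the 9 enzymes as reported (diamonds), under other analysis settings (circles) and with 1 library left out (triangles), filled black where the adjusted p was under 0.05. Values stay below 0 for every enzyme, and black symbols occur only for SQLE, MSMO1 and DHCR7.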

How the data were processed

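RNA of 3 shCLIC1 and 3 shNC samples was measured. The tools fastp, HISAT, RSEM and edgeR and the build GRCh38 are named in the submitters' processing notes. Nothing used here gives their versions, roles, annotation or filters. TPM values were deposited by the authors with 2 decimals, scaled to the same total in each library, so a rise in abundant genes lowers others, and depth per sample is unknown. The authors' columns of group means and gene lengths entered no test. Columns with the control abbreviation NC were assigned to shNC. The columns without it, which carry an S, were assigned to shCLIC1, although their names do not spell out the hairpin. Replicates were matched by number.

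Values were taken as log2(TPM + 1), which understates changes of low genes. Genes with a mean of at least 1 TPM, 14135 in all, were compared by limma 3.58.1 (R 4.3.3) with a mean-variance trend, two-sided, with Benjamini-Hochberg adjustment over all tested genes at 0.05. The procedure was first tested on simulated data. Exact permutation tests were two-sided. Of the listed genes, FAXDC2 and ABCA1 were under the filter, and MARCHF6 was matched by its identifier.

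The members, gene lists and tests were chosen with earlier results of these data known. The genes named are the 9 members, CLIC1, the listed genes that were called, the gene with the smallest p of a list without a call, pseudogenes and antisense genes named after a member, and the non-members with the closest profile. Some genes that the rule names are not reported here. LBR, TM7SF2, EBPL, FA2H and SREBF2 were named for their role or protein family after their values were seen. The alternatives were other pseudocounts, filters, scalings, limma settings, a replicate term and leaving out each library. Locations and transcripts came from GENCODE release 29 on GRCh38, and promoters from RefSeq on GRCh38.p14.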

Additional observations from a re-analysis of the deposited data

How the results depend on the processing

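All 9 enzymes kept a negative fold change under the 16 alternatives, and their median stayed between −0.32 and −0.26. Where the groups of an enzyme did not overlap, only the 3 rescalings could have reversed its sign. Calls moved more. Without a filter on low values 61 genes were called in place of 246, with 3 of the listed pathway genes in place of 8. In that fit 0 of the 9 enzymes were called, and 7 had an unadjusted p under 0.05, as did 2772 of 29306 tested genes. By limma without the trend 0 genes were called (2040 of 14135 at an unadjusted p under 0.05), with 0 enzymes (7 at an unadjusted p under 0.05) and 0 listed genes. CLIC1 itself then missed the threshold at the same log2 fold change of −0.54 (adjusted p = 0.0730). With replicate number as a block 41 genes were called, with 2 enzymes, DHCR7 being lost (adjusted p = 0.0884), and 3 listed genes. Deviations of same-numbered libraries correlated at −0.05 to 0.04 over tested genes, and not every library correlated best with its own number. These values show no pairing by number, and whether libraries share a batch was not tested. With 1 library left out the counts ranged from 34 to 242 genes, 0 to 3 enzymes and 2 to 8 listed genes. Listed genes were lost without any library but shCLIC1 replicate 3, with 5 without shCLIC1 replicate 1, 3 without shCLIC1 replicate 2, 2 without shNC replicate 1 or 2, and 3 without shNC replicate 3. The mean TPM minimum of 5, both other pseudocounts, the robust fit and the 3 rescalings left 3 enzymes called. TPM keeps no depth, so what depth limits cannot be stated.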
